A study of Homo sapiens and Canis lupus familiaris with 27 samples.

Results

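The 10 genes described here code for cytokines and chemokines of the secretory phenotype that senescent cells are known for. They were taken by name from the gene count tables of PC-3, LNCaP and CT1258 cells: interleukin 6 (IL6), interleukin 1 alpha and beta (IL1A, IL1B), leukemia inhibitory factor (LIF), interleukin 8 (listed as IL8, now also called CXCL8), CXCL1, CXCL2, CXCL3, CCL2 and CCL20. All 10 were among the 23708 genes of the human tables. The table of CT1258 held 16028 genes, of which 2 bore a listed name (CCL2 and CCL20), and interleukin 1 alpha, interleukin 1 beta and interleukin 8 stood there as canine protein entries (IL1A_CANFA, IL1B_CANFA, IL8_CANFA). Canine IL6, LIF, CXCL1, CXCL2 and CXCL3 were not analysed here.

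PC-3 and LNCaP are human prostate carcinoma cell lines, from a bone and a lymph node metastasis, respectively, and CT1258 is a canine prostate carcinoma cell line. Each was exposed to 15 µM PDA-66, an indolylmaleimide, for 12 or 24 h, or to 0.15% DMSO as solvent control, which is labelled 24 h, so that the PDA-66 12 h samples also differed from their controls in time. The 9 groups held 3 samples each, and counts of 26 of the 27 samples were used, because 1 PC-3 control was excluded by the authors. The DMSO group of PC-3 therefore had 2 samples, and each cell line is a single line grown in vitro.

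Senescent and damaged cells secrete inflammatory proteins, and the chemokines among them attract leukocytes. Interleukin 1 alpha and beta signal through a shared receptor to NF-kappaB, a transcription factor that switches on the genes of interleukin 6, interleukin 8 and the CXCL chemokines. The messenger RNAs of these genes are short-lived, since AU-rich stretches behind their coding sequence recruit proteins that degrade them.

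Each sample had 14650839 to 18091755 counts in PC-3, 11923105 to 14741883 in LNCaP and 7203534 to 20976950 in CT1258, where all controls were deeper than all PDA-66 samples. LNCaP samples varied most, with a common coefficient of variation of 0.240 against 0.0971 for PC-3. Levels are given as CPM, the counts of a gene per 1000000 counts of the sample. KLK3, the prostate-specific antigen, had 23.7 to 68.2 CPM in LNCaP and 0 or 1 counts in PC-3. The canine line had EPCAM, an epithelial adhesion protein, at 0 to 2 counts, and LUM, a collagen-binding protein used as a fibroblast marker, at 262 to 429 CPM. EPCAM was the only 1 of the 5 listed epithelial markers found by name among the CT1258 genes. The values therefore do not show whether the line lacks epithelial expression. The leukocyte gene PTPRC had 1 to 19 counts in PC-3, 0 to 2 in LNCaP and 1 to 8 in CT1258. The LNCaP PDA-66 12 h replicate 2 stood apart from its group with the lowest scaling factor of all samples, 0.868, and with COL1A1 at 125 CPM against 18.5 and 18.8 CPM in the other PDA-66 12 h samples.

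In hg19 (GRCh37), interleukin 8 lies at chr4:74606236-74609433 on the plus strand, in a chemokine cluster with CXCL1 (chr4:74735110-74737025, plus), CXCL3 (chr4:74902306-74904524, minus) and CXCL2 (chr4:74962757-74964913, minus). The interleukin 1 genes are neighbours on the minus strand of chromosome 2, IL1A at chr2:113531502-113542070 and IL1B at chr2:113587328-113594393. CCL20 lies on the same chromosome at chr2:228670455-228682280 (plus), IL6 at chr7:22765503-22771621 (plus), LIF at chr22:30636442-30642748 (minus) and CCL2 at chr17:32582293-32584227 (plus). Of the exon bases of IL6, 9.91% are also covered by IL6-AS1 or STEAP1B on the opposite strand, and of LIF 4.37% by LIF-AS1 or LIF-AS2. Whether counting used the strand is not given in the sources used here, so reads in these stretches cannot be assigned to 1 strand.

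Promoter windows of 250 bases before to 50 bases after the transcription start were listed for 8 of the 10 genes in RefSeq (GRCh38.p14), all but LIF and CCL2. The letters GGNNTTTCC, the core of an NF-kappaB site, were found on either strand in the windows of 6 of these 8 genes, against 6.26% of 35116 windows in the genome. The stricter form with 1 more G at its start, each match of which is also a match of the shorter motif, was present in 5 of 8 against 1.91%. The letters TGANTCA, an AP-1 site, were in 2 of 8 (IL1A and interleukin 8) against 7.71%, and TATAAA in 3 of 8 against 11.5%. These motifs were chosen after the promoters had been seen, and a match describes the letters, not binding. A gene was counted if any of its windows matched (IL1A has 2), whereas the genome share counts windows. CXCL1, CXCL2 and CXCL3 have promoters that are much alike, as given below, so their matches are not separate observations. The 120 bases before the start of the 6 genes with GGNNTTTCC are printed to show its position, 5′ to 3′ on the strand of the gene, with the match in capitals (for CCL20, GGAAAACCC is the match read on the opposite strand). They are at chr4:73740449-73740568 (plus) for interleukin 8, chr4:73869273-73869392 (plus) for CXCL1, chr4:74099196-74099315 (minus) for CXCL2, chr4:74038690-74038809 (minus) for CXCL3, chr7:22727080-22727199 (plus) for IL6 and chr2:227813722-227813841 (plus) for CCL20.
CXCL8: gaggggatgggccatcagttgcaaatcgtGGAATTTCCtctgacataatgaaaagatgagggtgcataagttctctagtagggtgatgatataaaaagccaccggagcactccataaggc
CXCL1: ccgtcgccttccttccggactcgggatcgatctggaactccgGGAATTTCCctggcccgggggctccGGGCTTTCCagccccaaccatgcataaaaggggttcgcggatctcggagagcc
CXCL2: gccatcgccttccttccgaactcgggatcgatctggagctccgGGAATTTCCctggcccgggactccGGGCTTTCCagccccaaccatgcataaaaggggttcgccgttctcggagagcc
CXCL3: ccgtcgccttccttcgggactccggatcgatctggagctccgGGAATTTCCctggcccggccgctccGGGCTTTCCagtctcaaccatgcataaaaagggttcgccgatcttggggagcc
IL6: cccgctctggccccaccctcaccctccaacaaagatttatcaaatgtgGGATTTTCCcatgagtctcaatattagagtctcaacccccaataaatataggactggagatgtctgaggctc
CCL20: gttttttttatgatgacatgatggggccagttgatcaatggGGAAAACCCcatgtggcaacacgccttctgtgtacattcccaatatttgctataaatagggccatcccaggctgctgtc

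CXCL1, CXCL2 and CXCL3 each carry 2 matches in nearly the same places, which start 78 and 53 bases before the start site in CXCL1 and CXCL3 and 77 and 53 bases before it in CXCL2. Over these 120 bases, CXCL1 was 93.4% identical with CXCL2 and 90.8% with CXCL3, and CXCL2 was 88.4% identical with CXCL3. The interleukin 8 stretch, with a single match 91 bases before the start, was 43.7 to 45.3% identical with those 3. The match of IL6 lies 72 and that of CCL20 79 bases before the start, and the windows of IL1A and IL1B did not hold these letters.

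In PC-3 cells, most of the measured cytokines and chemokines were higher after PDA-66, and interleukin 8 had the largest change. Of the 10 genes, 9 passed the filter on low counts, and 6 of these 9 were higher at 12 h than in DMSO at an adjusted p under 0.001, while 0 were lower. Of all 13777 genes tested in PC-3, 13% were called higher and 14.6% lower at 12 h. Without IL6, whose controls had 2 and 9 counts and which passed the filter through its PDA-66 samples, 5 of 8 were higher. At 12 h the median log2 fold change over the 9 genes was 2.72, the value of IL6 itself. The genes ranked next to it were IL1B at 1.58 and CXCL3 at 2.84. Over all genes tested the median was -0.01. At 24 h, 4 of 9 were called higher and 0 lower, against 8.88% of all genes called higher and 10.5% called lower. The median at 24 h was 1.29, again the value of IL6. Both PDA-66 groups share their 2 control samples. The sequenced RNA came from whole cultures, in which a change in the share of expressing cells and a change in RNA per cell cannot be told apart.

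**Figure D1:**
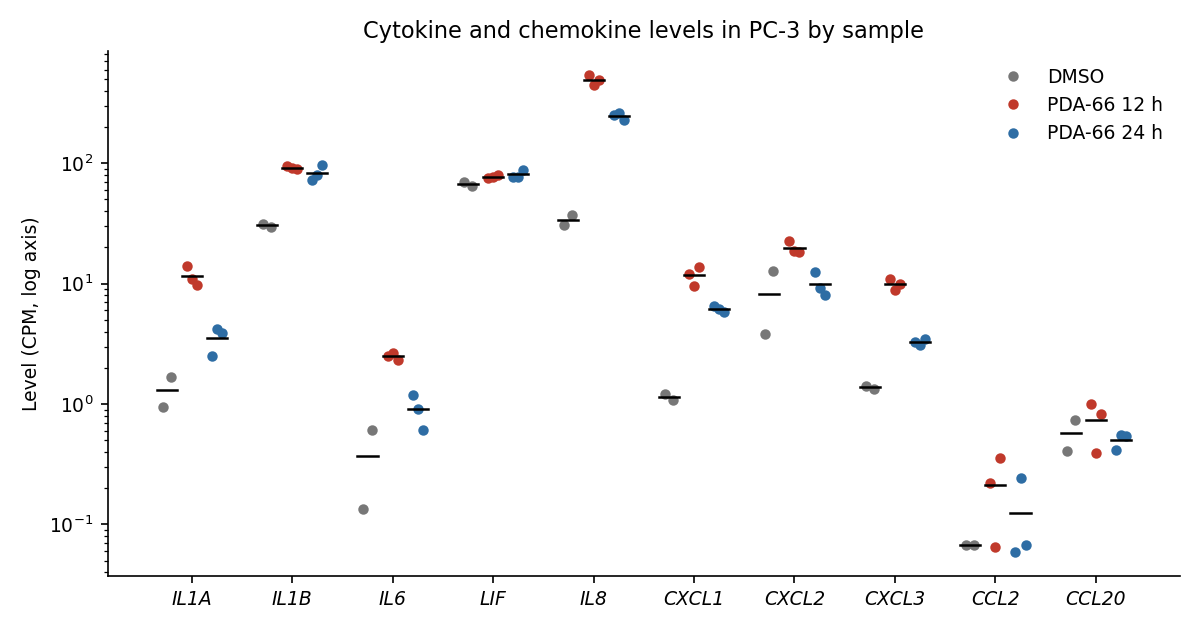
CPM (log axis) of the 10 cytokine and chemokine genes in each PC-3 sample, grouped by DMSO and by 12 and 24 h of PDA-66, with bars at the group means. Interleukin 8 lies at 30.6 and 37.5 CPM in DMSO and between 449 and 544 CPM at 12 h, whereas LIF stays between 64.8 and 87.6 CPM.

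Among the interleukins, IL1A, which acts as a membrane-bound and released alarm signal, had 0.945 and 1.68 CPM in DMSO, 13.96, 10.8 and 9.77 CPM at 12 h and 2.49, 4.22 and 3.86 CPM at 24 h. All PDA-66 samples were above both controls, and the 12 h samples were above the 24 h samples. The log2 fold change was 3.13 at 12 h (SE 0.29, adjusted p = 1.62e-06, edgeR quasi-likelihood test) and was 1.41 at 24 h (SE 0.33, adjusted p = 0.00326), so that the gene was called at 12 h.
IL1B, the secreted form released after inflammasome cleavage, had 31.4 and 29.7 CPM in DMSO, 94.2, 91.9 and 88.7 CPM at 12 h and 72.7, 79.1 and 96.5 CPM at 24 h. Here the PDA-66 samples of both times overlapped each other and none overlapped the controls. IL1B was called at both times, with a log2 fold change of 1.58 at 12 h (SE 0.13, adjusted p = 4.01e-07) and 1.44 at 24 h (SE 0.13, adjusted p = 2.04e-06).

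IL6, a cytokine that drives the acute phase response and STAT3 signalling, was the scarcest of the called genes. It had 2 and 9 counts in DMSO, 45, 41 and 39 counts at 12 h and 20, 15 and 9 counts at 24 h, which are 0.135 and 0.604 CPM, 2.48, 2.68 and 2.31 CPM, and 1.19, 0.917 and 0.609 CPM. The 12 h samples were above all others, and the lowest 24 h sample was level with the higher control. IL6 was called at 12 h with a log2 fold change of 2.72 (SE 0.43, adjusted p = 0.000143), a size that depended on the control used, with 4.14 without DMSO replicate 3 and 2.04 without DMSO replicate 2. At 24 h the log2 fold change was 1.29 (SE 0.51, adjusted p = 0.0496) and IL6 was not called.

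LIF, a relative of interleukin 6 that signals through gp130, was not called. It had 70.2 and 64.8 CPM in DMSO, 76.0, 76.4 and 79.8 CPM at 12 h and 77.3, 77.3 and 87.6 CPM at 24 h. All PDA-66 samples were above both controls, but the log2 fold change was 0.20 at 12 h (95% interval 0.00 to 0.39, adjusted p = 0.103) and 0.26 at 24 h (95% interval 0.06 to 0.45, adjusted p = 0.0439).

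Interleukin 8, the main attractant of neutrophils, had 30.6 and 37.5 CPM in DMSO, 544, 449 and 487 CPM at 12 h and 254, 262 and 230 CPM at 24 h. The 3 groups were separate, with the highest values at 12 h. IL8 was 14.5-fold higher at 12 h (95% interval 12.0 to 17.5, log2 fold change 3.86, SE 0.14, adjusted p = 7.26e-10) and 7.30-fold higher at 24 h (95% interval 6.10 to 8.75, log2 fold change 2.87, SE 0.13, adjusted p = 1.55e-08). Its share of all counts of the 10 genes was 21.8 to 24.96% in DMSO, 67.2 to 70.0% at 12 h and 52.7 to 59.2% at 24 h, while their summed level went from 140 to 150 CPM in DMSO to 668 to 778 CPM and 430 to 443 CPM.

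CXCL1, like CXCL2 and CXCL3 a growth-regulated chemokine that binds the same receptor as interleukin 8, had 1.22 and 1.07 CPM in DMSO, 12.0, 9.60 and 13.7 CPM at 12 h and 6.58, 6.11 and 5.82 CPM at 24 h. It was 10.2-fold higher at 12 h (log2 fold change 3.36, SE 0.23, adjusted p = 1.05e-07), and at 24 h its log2 fold change was 2.42 (SE 0.24, adjusted p = 6.12e-06). CXCL3 had 1.42 and 1.34 CPM in DMSO, 10.9, 8.88 and 10.0 CPM at 12 h and 3.26, 3.12 and 3.45 CPM at 24 h. In both genes the 3 groups were separate, with DMSO lowest and 12 h highest. The log2 fold change of CXCL3 was 2.84 at 12 h (SE 0.20, adjusted p = 1.24e-07) and 1.24 at 24 h (SE 0.22, adjusted p = 0.000531). The 24 h call of CXCL3 was lost in 6 of 8 fits without a single sample (both controls among those samples), with voom and with only the DMSO and 24 h groups fitted.

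CXCL2 behaved less uniformly, because its controls were far apart. It had 3.78 and 12.7 CPM in DMSO, 22.7, 18.7 and 18.4 CPM at 12 h and 12.5, 9.17 and 8.05 CPM at 24 h. The 12 h samples were above both controls, while the 24 h samples lay between them. Its log2 fold change was 1.28 at 12 h (SE 0.33, adjusted p = 0.00495) and 0.27 at 24 h (SE 0.34, adjusted p = 0.530), and it was not called. Without DMSO replicate 3, which held the higher value, CXCL2 was called at 12 h with a log2 fold change of 2.41 (adjusted p = 1.16e-05). Without DMSO replicate 2, the log2 fold change at 24 h was -0.34.

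The transcripts of CXCL1, CXCL2 and CXCL3 are alike, and how reads that match more than 1 of them were counted is not given in the sources used here. Of the 75-base stretches of each transcript, the read length of the study, 3 of 1100 in CXCL1, 26 of 1041 in CXCL2 and 23 of 1001 in CXCL3 were shared exactly with another of these chemokines, and 0 of 1568 in interleukin 8.

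The CC chemokines were near the detection limit. CCL20, which attracts cells with CCR6, had 6 and 11 counts in DMSO, 18, 6 and 14 at 12 h and 7, 9 and 8 at 24 h. The groups overlapped, and the log2 fold change was 0.39 at 12 h (SE 0.46, adjusted p = 0.489) and -0.19 at 24 h (SE 0.50, adjusted p = 0.770). CCL2, the monocyte attractant MCP-1, had 1 and 1 counts in DMSO, 4, 1 and 6 at 12 h and 1, 4 and 1 at 24 h and was not tested. A change of CCL2 was not detectable at this depth.

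Without overlap between the samples, 8 of the 9 genes tested were higher at 12 h than in DMSO, the exception being CCL20, where 35.5% of all genes tested were higher without overlap. At 24 h it was 7 of 9, all but CCL20 and CXCL2, against 30.6% of all genes. For IL6 this separation was marginal, with 0.609 CPM in PDA-66 24 h replicate 3 and 0.604 CPM in DMSO replicate 3, from 9 counts each.

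**Figure D2:**
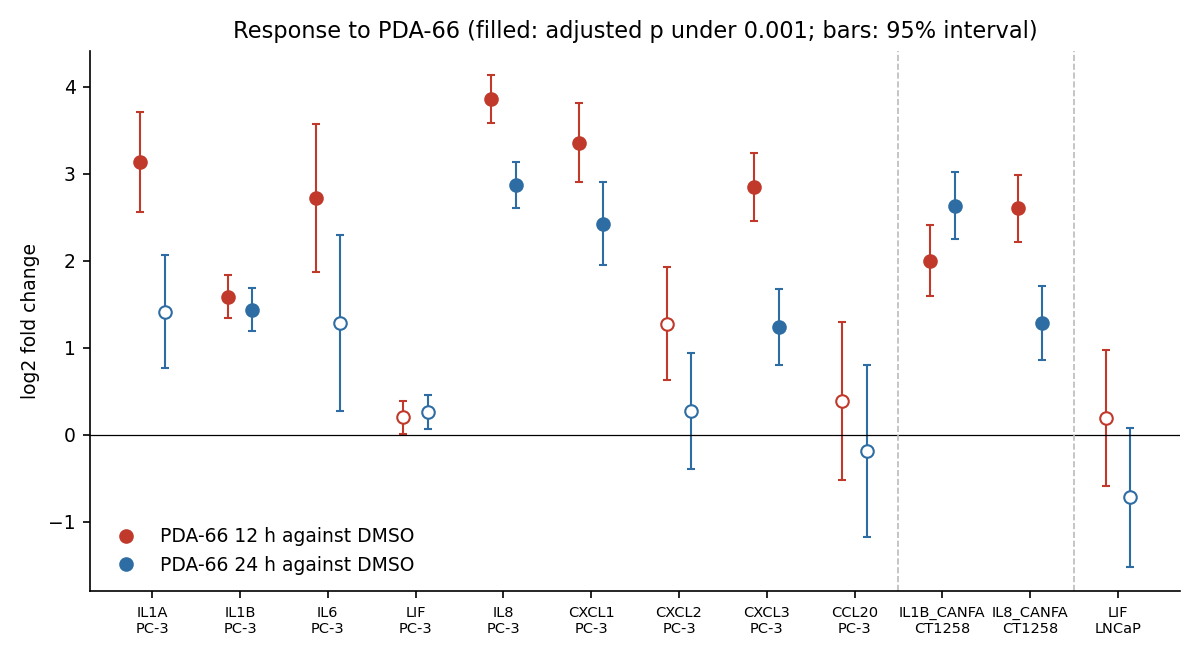
Log2 fold change against DMSO (y axis) with its 95% interval for the genes that passed the filter, 9 in PC-3, 2 in CT1258 and LIF in LNCaP, at 12 and 24 h. Filled points have an adjusted p under 0.001, among them IL8 at 3.86 and 2.87 in PC-3 and 2.60 and 1.28 in CT1258, and open points were not called.

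Between 12 and 24 h, 3 of the 9 genes fell in PC-3 and 0 rose, against 0.631% of all genes called lower and 0.777% called higher. IL1A had a log2 fold change of -1.72 (SE 0.21, adjusted p = 0.000247), CXCL3 of -1.60 (SE 0.15, adjusted p = 2.72e-05) and IL8 of -0.99 (SE 0.10, adjusted p = 7.18e-05). IL6 (-1.44, SE 0.31, adjusted p = 0.00971), CXCL2 (-1.01, SE 0.28, adjusted p = 0.0377) and CXCL1 (-0.93, SE 0.15, adjusted p = 0.00157) had values of similar size that were not called. Without overlap, 6 of 9 genes were lower at 24 h than at 12 h, where 18.7% of all genes were. IL1B had a log2 difference of -0.15 (SE 0.10, adjusted p = 0.415) and LIF of 0.06 (SE 0.09, adjusted p = 0.728). IL1A was no longer called when any of 5 single samples was left out, and IL8 when PDA-66 24 h replicate 3 was left out.

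Divided by transcript length, the level in DMSO was highest for interleukin 8, with 20.7 ± 2.97 CPM per kilobase (SD, n = 2), followed by IL1B with 20.3 ± 0.794 and LIF with 17.4 ± 0.983. The first 2 overlapped, and LIF was below both in each sample. CXCL2 followed at 7.38 ± 5.64, and the other 6 genes lay between 0.0908 (CCL2) and 1.28 (CXCL3) CPM per kilobase. At 12 h, interleukin 8 stood at 300.5 ± 29.2 CPM per kilobase (SD, n = 3), apart from IL1B at 60.8 ± 1.84, LIF at 20.0 ± 0.540 and CXCL2 at 17.9 ± 2.17. CXCL1 at 10.0 ± 1.75 and CXCL3 at 9.24 ± 0.953 did not differ beyond their spread, and IL1A (5.71 ± 1.08) and IL6 (2.21 ± 0.163) followed. At 24 h, interleukin 8 was at 151 ± 10.1 CPM per kilobase and IL1B at 54.9, and the order of the next 5 genes, LIF, CXCL2, CXCL1, CXCL3 and IL1A, was the same as at 12 h.

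The correlation of log2 CPM between interleukin 8 and the other 8 genes tested ranged from 0.257 for CCL20 to 0.992 for CXCL1 over the 8 PC-3 samples, which share the split between DMSO and PDA-66. Over all genes tested, those most like IL8 in PC-3 were FGF5 (r = 0.997), AGPAT9 (0.997), IL13RA2 (0.997), SERPINB7 (0.995) and CCT6A (0.995). In CT1258 they were ELOVL4 (r = 0.985), LIMCH1 (0.983), GPR125 (0.983), CALD1 (0.982) and AMOTL2 (0.982) over 9 samples, which in addition share the difference in depth between controls and PDA-66 samples.

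In LNCaP cells, nearly all of these genes were barely detectable. CXCL1 and CXCL3 had 0 counts in all 9 samples, and interleukin 8 had 3, 4 and 8 counts in DMSO, 6, 0 and 6 at 12 h and 2, 6 and 3 at 24 h. Of the 10 genes only LIF passed the filter, with 11.4, 4.85 and 8.34 CPM in DMSO, 5.91, 15.6 and 6.67 CPM at 12 h and 4.61, 5.14 and 5.21 CPM at 24 h. The highest value at 12 h belonged to replicate 2, the sample that stood apart. The log2 fold change of LIF was 0.19 at 12 h (SE 0.40, adjusted p = 0.771) and -0.72 at 24 h (SE 0.41, adjusted p = 0.374), and without that sample it was -0.39 at 12 h. LIF was called by neither edgeR's quasi-likelihood test nor its likelihood ratio test, DESeq2 or limma-voom at either time, and its unadjusted p was above 0.05. Of all 13156 genes tested in LNCaP, 0.0076% were called at 12 h and 0% at 24 h. At the same threshold the study reported more LNCaP genes at both times, and the cause of this gap was not tested. A gene not called in LNCaP, where samples varied most, is not shown to be unchanged.

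The levels in the controls of PC-3 and LNCaP were compared in a joint fit of both lines. Of the 9 genes in this fit, 8 passed the filter through PC-3 alone, and the 7 called higher in PC-3, beside 21.7% of all 15018 genes, are therefore a description. LIF, which passed the filter in both lines, was higher in PC-3 by 3.06 on the log2 scale. The log2 difference was 7.59 for IL1B and 6.47 for IL8 (88.7-fold). CXCL2 had 7, 0 and 0 counts in the LNCaP controls, and its log2 difference of 5.50 became 9.94 without LNCaP DMSO replicate 1. IL1A had 0, 3 and 0 counts there, and its log2 difference of 3.98 became 7.31 without LNCaP DMSO replicate 2. Both of these larger values are fitted against controls without counts and depend on the prior count. IL1A lost its call without PC-3 DMSO replicate 3 (3.52) and with voom (4.21). For CXCL1 and CXCL3, which had no counts in the LNCaP controls, the level in PC-3 was at least 14.7-fold and at least 17.7-fold that of 3 counts summed over the LNCaP controls. IL6 (log2 difference 3.50, adjusted p = 0.0101) and CCL20 (1.49, adjusted p = 0.112) were not called.

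CT1258 cells shared the rise of interleukin 8 and interleukin 1 beta. IL8_CANFA had 2.38, 3.48 and 3.97 CPM in DMSO, 21.8, 20.4 and 17.5 CPM at 12 h and 8.22, 6.03 and 9.77 CPM at 24 h, and the 3 groups did not overlap, where 36.1% of all genes were higher at 12 h, 33.1% higher at 24 h and 22.8% lower at 24 h than at 12 h without overlap. It was 6.06-fold higher at 12 h (log2 fold change 2.60, SE 0.20, adjusted p = 8.87e-08) and 2.44-fold higher at 24 h (log2 fold change 1.28, SE 0.22, adjusted p = 0.000164). Between the times it fell, with a log2 difference of -1.32 (SE 0.20, adjusted p = 0.000647), against 1.28% of all 9886 genes called lower. That call was lost when any single PDA-66 sample was left out.

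IL1B_CANFA had 1.19, 1.69 and 1.89 CPM in DMSO, 5.86, 6.84 and 6.42 CPM at 12 h and 9.20, 9.18 and 11.4 CPM at 24 h. The groups did not overlap and, unlike those of interleukin 8, were highest at 24 h, where 23.3% of all genes were higher at 24 h than at 12 h without overlap. The log2 fold change was 2.00 at 12 h (SE 0.21, adjusted p = 1.51e-06) and 2.63 at 24 h (SE 0.20, adjusted p = 1.19e-07), and the difference between the times, 0.63 (SE 0.18, adjusted p = 0.0279), was not called. Thus 2 of the 2 genes tested were higher at both times, where 22.2% of all genes were called higher at 12 h and 16.6% at 24 h.
IL1A_CANFA did not pass the filter. It had 19, 15 and 19 counts in DMSO, 5, 7 and 6 at 12 h and 5, 5 and 5 at 24 h, which are 0.942, 0.746 and 0.944 CPM, 0.666, 0.839 and 0.802 CPM, and 0.614, 0.656 and 0.678 CPM. CCL2 and CCL20 had 0 or 1 counts in every CT1258 sample.

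**Figure D3:**
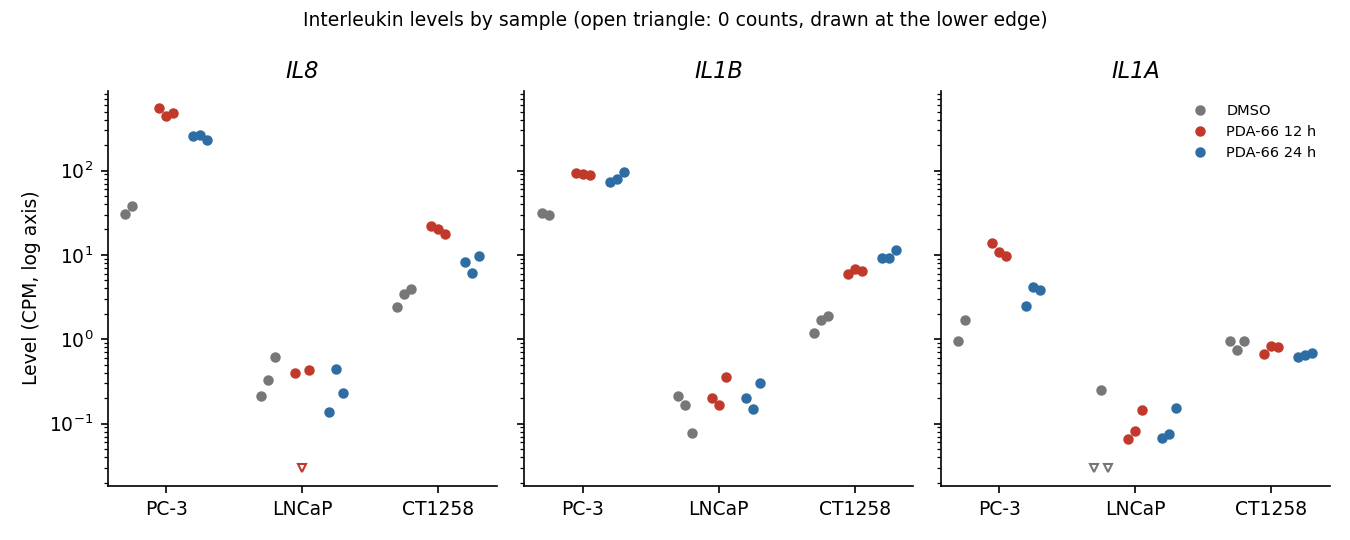
CPM (log axis) of interleukin 8, interleukin 1 beta and interleukin 1 alpha in each sample of PC-3, LNCaP and CT1258 by group, with open triangles for 0 counts. Interleukin 8 is highest at 12 h in PC-3 (449 to 544 CPM) and in CT1258 (17.5 to 21.8 CPM) and has at most 8 counts in LNCaP.

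Whether the lines responded differently was tested by interaction terms. At 12 h, the log2 response of IL8 was 4.30 higher in PC-3 than in LNCaP (SE 0.70, adjusted p = 0.000849), the only 1 of the 9 genes called, where 0.812% of all genes were called higher. With 0 to 8 counts per sample in LNCaP, IL8 entered this fit through PC-3 alone, so the value rests on a line near the detection limit. Leaving out single samples ended this call in 15 of 17 fits. At 24 h the difference was 3.41 (adjusted p = 0.00754), and 0 of 9 genes were called by edgeR's quasi-likelihood test, 2 with an unadjusted p under 0.05, where 0.266% of all genes were called. At both times, every tested gene but LIF entered this fit through PC-3 alone. CXCL1 and CXCL3 had 0 counts in all LNCaP samples, so no response could be measured there. A gene not called here is therefore not shown to respond alike in both lines.
Between CT1258 and PC-3, the response of IL1A at 12 h was lower in CT1258 by a log2 difference of -3.29 (SE 0.51, adjusted p = 3.55e-05), where 4.33% of all 11739 genes were called lower, and the 24 h difference was -1.83 (adjusted p = 0.0173). IL1A_CANFA had not passed the filter of its own line and entered this fit through PC-3, where IL1A rose. The response of IL1B at 24 h was 1.21 higher in CT1258 (SE 0.24, adjusted p = 0.000972), where 2.55% of all genes were called higher, and at 12 h the difference was 0.43 (adjusted p = 0.204). The 24 h call was lost in 25 of 26 fits that omitted a sample and in 3 of 8 other settings. For IL8 the difference was -1.24 at 12 h (adjusted p = 0.00604) and -1.57 at 24 h (adjusted p = 0.00188), which were not called. Between CT1258 and LNCaP, 0 of 4 genes were called by edgeR's quasi-likelihood test at either time, 2 at each time with an unadjusted p under 0.05, where 12.8% of all genes were called at 12 h and 3.42% at 24 h. None of these 4 had passed the filter of LNCaP, and IL1A and CCL20 had not passed that of CT1258 either. CCL20 had 0 or 1 counts in every CT1258 sample. Genes not called here are therefore not shown to respond alike. The IL8 difference was 3.03 at 12 h (adjusted p = 0.00123) and 1.82 at 24 h (adjusted p = 0.0593). These fits set canine beside human reads, which were mapped with other tools and gene models.

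Of 12 receptor genes in the PC-3 table, 7 were tested, where 13% of all genes were called higher at 12 h and 19.3% either way at 24 h. At 12 h, 2 receptor genes were called higher. These were IL1RAP, the accessory chain of the interleukin 1 receptor (log2 fold change 0.96, SE 0.13, adjusted p = 4.35e-05), and IL6ST, which codes for gp130 (0.93, SE 0.14, adjusted p = 0.000116). At 24 h, 0 of 7 were called by the quasi-likelihood test, although 6 had an unadjusted p under 0.05, and the likelihood ratio test called 3, DESeq2 2 and limma-voom 1. IL1R1, the signalling receptor of interleukin 1, had 1 to 4 counts in DMSO, 9 to 16 at 12 h and 10 to 17 at 24 h (log2 fold change 2.19, adjusted p = 0.00847, and 2.40, adjusted p = 0.00541). IL1RN, the natural antagonist at that receptor, had 10 to 24, 3 to 8 and 7 to 8 counts (log2 fold change -1.91, adjusted p = 0.00415, and -1.24, adjusted p = 0.0331). The log2 fold changes of LIFR (0.34 and 0.30), IL6R (0.15 and -0.10) and SDC1 (-0.45 and -0.47) were not called. CXCR1 and CXCR2, the receptors of interleukin 8, had 0 to 2 counts in all PC-3 samples.

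The genes that surround these cytokines in the NF-kappaB pathway moved in both directions in PC-3. Of 13 subunits and inhibitors, 4 were higher and 2 lower at 12 h, and 1 was higher and 1 lower at 24 h. Over all genes tested in PC-3, 13% were called higher and 14.6% lower at 12 h, and 8.88% and 10.5% at 24 h. NFKBIZ, a nuclear cofactor of NF-kappaB at the IL6 promoter, fell with a log2 fold change of -1.53 (SE 0.13) at 12 h and -0.91 (SE 0.13) at 24 h, and NFKBIE, an inhibitor, rose by 1.16 (SE 0.20) at 12 h. Of 11 target genes tested, 5 were higher and 1 lower at 12 h and 3 higher and 1 lower at 24 h. TNFAIP3, the feedback inhibitor A20, had 2.90 and 3.02 CPM in DMSO, 31.2 to 37.7 CPM at 12 h and 14.6 to 19.8 CPM at 24 h (log2 fold change 3.53 and 2.52, both SE 0.18). TRAF1 rose by 1.92 (SE 0.26) at 12 h and was not called at 24 h.

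Of 16 other secreted factors tested, 6 were higher and 2 lower at 12 h, and 4 were higher and 3 lower at 24 h. The shares of all PC-3 genes were 13% higher and 14.6% lower at 12 h, and 8.88% and 10.5% at 24 h. IL24, an interleukin 10 relative, had log2 fold changes of 3.22 (SE 0.52) and 3.45 (SE 0.51). CSF3, the granulocyte growth factor, had 0 counts in both controls, 14 to 17 counts at 12 h and 4 to 8 at 24 h, at least 9.29-fold and at least 3.52-fold higher than 3 counts summed over the controls. CSF3 is among the called factors but passed the filter through its PDA-66 samples alone. The counts of called factors thus include a gene that could only be higher. Of 13 proteases and inhibitors, 7 were higher and 3 lower at 12 h and 5 and 3 at 24 h. MMP14, a membrane-bound matrix protease, rose by 1.61 at 12 h and 1.06 at 24 h.

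Among 15 upstream regulators, 4 were higher and 1 lower at 12 h, and 1 was higher and 1 lower at 24 h. The shares of all PC-3 genes were 13% higher and 14.6% lower at 12 h, and 8.88% and 10.5% at 24 h. The genes of the cGAS-STING DNA sensor differed in direction, since MB21D1 (cGAS) rose by 1.51 and 0.94 and TMEM173 (STING) fell, with log2 fold changes of -1.52 and -0.70. Of 8 genes of the STAT3 axis, 2 were higher and 2 lower at 12 h and 0 and 2 at 24 h, with SOCS1, a feedback inhibitor, at 1.93 (SE 0.31) at 12 h and the kinase PIM1 at -1.86 and -1.03. Of 8 AP-1 genes, 1 was higher and 4 lower at 12 h and 0 and 3 at 24 h. FOS, which had 48.3 and 132 CPM in DMSO, had log2 fold changes of -3.23 and -2.42, and FOSB of -2.45 and -2.52.

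Of 10 senescence arrest markers, 4 were higher and 3 lower at 12 h and 3 and 2 at 24 h. The shares of all PC-3 genes were 13% higher and 14.6% lower at 12 h, and 8.88% and 10.5% at 24 h. The genes were listed together whatever direction is expected of each, so these counts are not a measure of senescence. SERPINB2, an inhibitor of plasminogen activators, rose by 2.99 (SE 0.11) and 1.49 (SE 0.11), whereas CDKN2B, the cell cycle inhibitor p15, fell with log2 fold changes of -2.62 and -2.09.

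**Figure D4:**
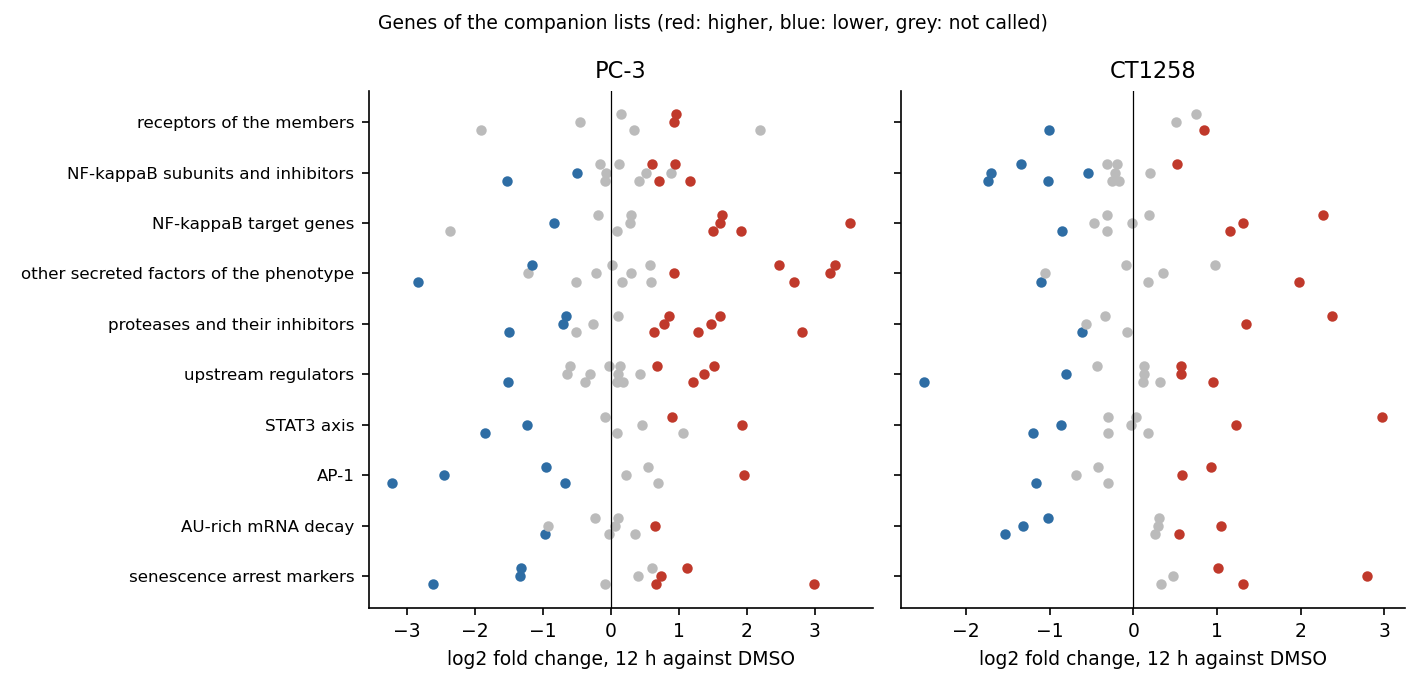
Log2 fold change at 12 h against DMSO (x axis) of each tested gene of 10 related gene lists in PC-3 and CT1258, with genes called higher in red, called lower in blue and not called in grey; CSF3 is not drawn because its controls had no counts. TNFAIP3 at 3.53 lies farthest to the right of the NF-kappaB targets in PC-3, and FOS at -3.23 farthest to the left of the AP-1 genes.

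In CT1258, 1 of 4 receptor genes tested was higher and 1 lower at 12 h, and 1 higher and 0 lower at 24 h. Over all CT1258 genes, 22.2% were called higher and 22.1% lower at 12 h, and 16.6% and 17.2% at 24 h. LIFR_CANFA fell at 12 h (log2 fold change -1.01, SE 0.15) and had -0.11 at 24 h, SDC1 rose by 0.85 and 0.82, and IL1R1 (0.51 and 0.56) and IL1RAP (0.75 and 0.25) were not called. Of 12 NF-kappaB subunits and inhibitors, 1 was higher and 5 lower at 12 h and 1 and 6 at 24 h, where 22.1% and 17.2% of all genes in CT1258 were called lower, with the cofactor BCL3 at -1.74 and -1.81 and the subunit RELB at -1.70 and -1.36. Of 9 NF-kappaB target genes, 3 were higher and 1 lower at 12 h and 3 and 2 at 24 h, with BIRC3_CANFA, an inhibitor of apoptosis, at 2.27 and 1.74 and the mitochondrial enzyme SOD2 at 1.31 and 0.73. Of 7 other secreted factors, HGF_CANFA was higher at 12 h (1.98), when VEGFA_CANFA was lower (-1.10), and 1 was higher and 2 lower at 24 h.

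Of 6 canine proteases and inhibitors, 2 were higher and 1 lower at 12 h and 1 and 2 at 24 h. The shares of all CT1258 genes were 22.2% higher and 22.1% lower at 12 h, and 16.6% and 17.2% at 24 h. The collagenase MMP1 was at 1.34 and 1.53 and MMP3_CANFA, a stromelysin, at 2.37 at 12 h. Among 10 upstream regulators, 3 were higher and 2 lower at 12 h and 2 and 2 at 24 h, and CEBPB, a factor that acts with NF-kappaB at cytokine promoters, had -2.51 and -1.74 and the DNA damage kinase ATM 0.96 and 0.89. The STAT3 axis had 2 of 9 genes higher and 2 lower at 12 h and 1 and 2 at 24 h, with SOCS1 at 2.97 at 12 h and JAK2 at 1.23 and 0.71. The AP-1 list had 2 of 6 higher and 1 lower at 12 h and 1 and 2 at 24 h, with JUNB at -1.16 and -1.41 and JUND, called at 24 h, at -0.69 and -1.204. Of 5 senescence arrest markers, 3 were higher and 0 lower at 12 h and 4 and 0 at 24 h. The largest called changes were those of SERPINB2 (2.79 and 2.44) and HMGB1_CANFA (1.31 and 1.21). As in PC-3, these counts are not a measure of senescence. In LNCaP, 0 of the 101 genes tested in all lists were called at either time by the quasi-likelihood test. Over all LNCaP genes, 0.0076% were called at 12 h and 0% at 24 h. At 12 h 38 of them had an unadjusted p under 0.05, and the likelihood ratio test called 10, DESeq2 9 and limma-voom 24, and at 24 h these numbers were 27, 8, 8 and 18.

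The chemokine cluster on chromosome 4 was examined gene by gene in PC-3, within 500 kb of the 4 chemokines. Over all genes tested in PC-3, 13% were called higher and 14.6% lower at 12 h, and 8.88% and 10.5% at 24 h. Of 14 neighbouring genes, 8 were tested, and 1 was higher at each time and 0 lower. That gene was CXCL6, named after its values were seen, another neutrophil attractant that starts 96.1 kb from interleukin 8. It had 1.81 to 2.63 CPM in DMSO, 20.8 to 23.5 CPM at 12 h and 12.2 to 14.7 CPM at 24 h (log2 fold change 3.30, SE 0.18, adjusted p = 1.55e-08, and 2.57, SE 0.19, adjusted p = 4.38e-07). MTHFD2L, EPGN, EREG, AREG, RASSF6 and ANKRD17 were not called. AFP, the fetal plasma protein alpha-fetoprotein, with at most 15 counts in a sample, had 0 to 0.0675 CPM in DMSO, 0.497 to 0.979 CPM at 12 h (adjusted p = 0.00101) and 0.338 to 0.611 CPM at 24 h (adjusted p = 0.00737) and missed the threshold. PPBP and CXCL5, further chemokines of the cluster, had 0 to 3 counts.
Around the interleukin 1 genes, 10 of 16 neighbouring genes were tested, of which 2 were higher (TTL, log2 fold change 0.81, and CKAP2L, 0.76) and 1 lower (ZC3H6, -1.55) at 12 h, named after their values were seen, and 2 were higher and 0 lower at 24 h. The shares of all PC-3 genes were again 13% higher and 14.6% lower at 12 h, and 8.88% and 10.5% at 24 h. In LNCaP, 0 of the genes tested around either cluster were called, beside 0.0076% of all genes at 12 h and 0% at 24 h.

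**Figure D5:**
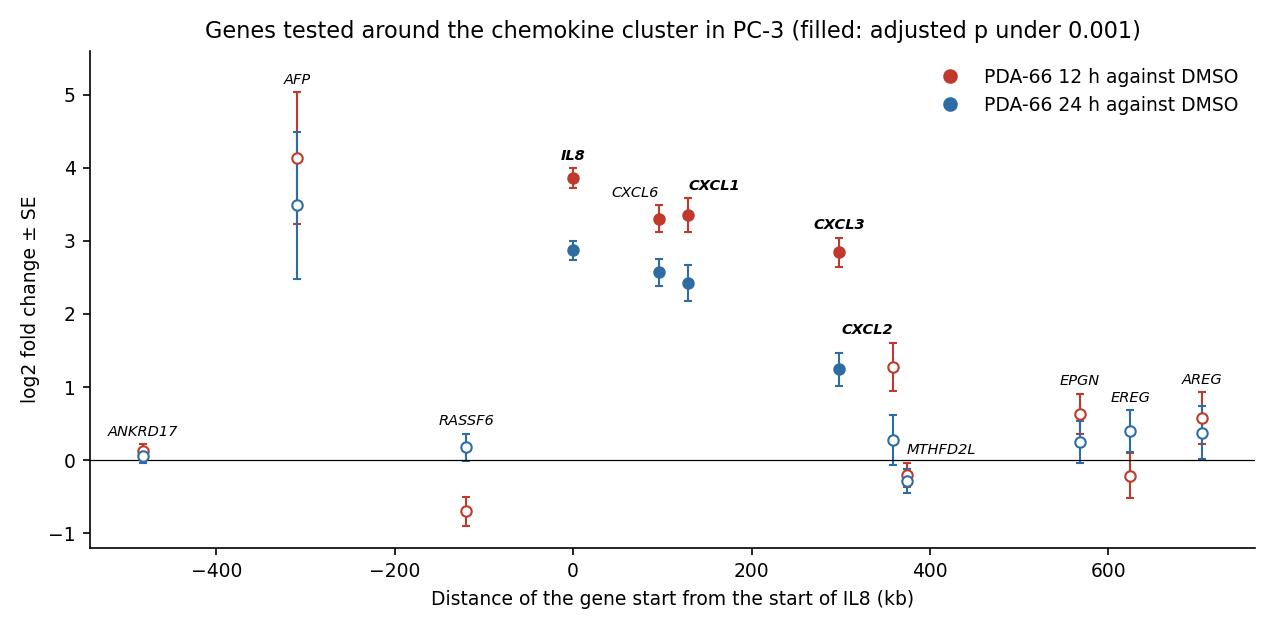
Log2 fold change with its standard error (y axis) of the 12 tested genes of the chemokine cluster in PC-3 against the distance of their start from that of interleukin 8 in kilobases (x axis), at 12 and 24 h. Interleukin 8, CXCL6, CXCL1 and CXCL3 lie at 3.86, 3.30, 3.36 and 2.84 at 12 h.

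The sequence behind the coding part of these transcripts was searched for the AU-rich letters that mark short-lived messengers, in GENCODE transcripts placed on hg19 (GRCh37). At least 3 copies of ATTTA were found in 9 of the 10 genes, CCL2 having 1, against 41.6% of 19378 protein-coding genes. The longer TTATTTATT was found in 6 of 10, against 8.43%, with 5 copies in CXCL2, 3 in CXCL1, 2 each in IL1B and LIF, and 1 each in interleukin 8 and CXCL3. Of 8 genes for proteins that act on such messengers, 1 was higher and 1 lower in PC-3 at 12 h and at 24 h. The shares of all PC-3 genes were 13% higher and 14.6% lower at 12 h, and 8.88% and 10.5% at 24 h. KHSRP, a decay-promoting protein, rose by 0.66 and 0.59, and ZC3H12A, the endonuclease Regnase-1 that cuts the IL6 messenger, fell at 12 h with a log2 fold change of -0.97. In CT1258, 2 of 8 were higher and 3 lower at both times. The shares of all CT1258 genes were 22.2% higher and 22.1% lower at 12 h, and 16.6% and 17.2% at 24 h. ZFP36L1, another decay-promoting protein, was at -1.53 and -1.71 and ZC3H12A at -1.31 and -0.72.

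Markers of the cell type also moved in PC-3 together with the chemokines. Over all genes tested there, 14.6% were called lower at 12 h and 10.5% at 24 h. Of 5 epithelial markers, 2 were lower at 12 h and 3 at 24 h, and their sum was 987 to 1088 CPM in DMSO, 658 to 727 CPM at 12 h and 680 to 908 CPM at 24 h, with CDH1 (E-cadherin) at log2 fold changes of -2.44 and -2.18 and KRT18 at -1.06 and -0.67. Of 4 leukocyte markers tested, 2 were lower at both times (LYZ, -3.40 and -3.05, and CD68, -0.69 and -0.73), and the list summed to 125 to 148 CPM in DMSO, 73.5 to 80.0 CPM at 12 h and 68.9 to 82.7 CPM at 24 h, CD68 being most of it and CD3E at 0 to 1 counts. Of 5 fibroblast and endothelial markers tested, 2 were lower at 12 h (COL1A2, -3.33, and PECAM1, -1.72) and 1 at 24 h (COL1A2, -1.97), and the list summed to 56.7 to 84.5, 17.0 to 20.2 and 27.7 to 31.4 CPM. Of the luminal markers, HOXB13 fell (-1.63 and -0.87), and KLK2 was at 0 in all samples. The part of these shifts in the rise of the cytokines was not tested.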

How the data were processed

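Poly(A) RNA from the 3 cell lines was sequenced as single reads of 75 bases. The study describes its samples as independent biological replicates. According to the authors, STAR (2.3.1s in the submitters' processing notes) placed the human reads on hg19, where they were counted on RefSeq genes, and BWA placed the canine reads on CanFam3.1. The authors deposited whole-number counts per gene, without normalization, and compared them with edgeR (3.14.0 in the notes). The handling of reads matching several genes is not given in the sources used here. A model per cell line, over its 3 groups, was fitted with edgeR 4.0.16 in R 4.3.3: filterByExpr (minimum count 10), TMM scaling, quasi-likelihood F test, Benjamini-Hochberg adjustment over all genes tested, and 0.001 as threshold as in the study. Every adjusted p comes from this test. PC-3 and LNCaP were also fitted together, and all 3 lines over shared symbols. Figures were drawn with matplotlib 3.10.9 in Python 3.11.15. CPM use TMM-scaled library sizes. Alternatives were DESeq2 1.42.0, limma 3.58.1 with voom, edgeR's likelihood ratio test, other scalings, filters and thresholds, thinned CT1258 controls, a replicate block and each sample left out. The scripts were tested on simulated data. Same-numbered samples did not deviate together. Named were all cytokines and chemokines listed, all receptors tested, the 2 largest called changes of each other list per line, and the 5 genes most like interleukin 8; some genes under this rule are not reported here. The members and lists were chosen with earlier results of these data known.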

Additional observations from a re-analysis of the deposited data

Results flagged for a closer look

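For 3 interactions the test of the difference in response between cell lines passed the threshold, and for 2 of them the call was lost in most fits that omitted a sample. The log2 response of IL8 at 12 h was 4.30 higher in PC-3 than in LNCaP, where interleukin 8 had 0 to 8 counts per sample, and the call was lost in 15 of 17 such fits. The log2 response of IL1A at 12 h differed by -3.29 between CT1258 and PC-3, and IL1A_CANFA had 5 to 19 counts and had not passed the filter of its own line. The log2 response of IL1B at 24 h was 1.21 higher in CT1258 than in PC-3, from control levels of 1.19 to 1.89 CPM in CT1258 and 29.7 and 31.4 CPM in PC-3, and the call was lost in 25 of 26 such fits.

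The response differed between the times in 4 cases. In PC-3, the log2 difference between 24 and 12 h was -1.72 for IL1A, -1.60 for CXCL3 and -0.99 for IL8, and in CT1258 it was -1.32 for IL8_CANFA, the call that any PDA-66 sample left out removed. The times are compared without a DMSO control of 12 h, so time in culture and time under PDA-66 cannot be told apart.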

How the results depend on the processing

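Limits: 2 controls in PC-3, few counts of IL6, CCL20 and CCL2, and 7203534 to 8325867 counts in the PDA-66 samples of CT1258 set the precision, and counting error adds to the spread between samples. Over all alternatives, 1355 values of single genes kept direction and side of the threshold, 50 passed it in addition, 73 lost it and 15 turned, and of the counts of called genes 299 stayed within 1.5 times the value in the report and 80 did not. Where no cause is named, the cause was not tested. In PC-3 at 24 h against DMSO, the 4 calls became 7 at an adjusted p under 0.05, where 24.3% of all genes were called higher, and 2 with voom, and between 24 and 12 h the 3 calls became 6 at 0.05, where 4.5% of all genes were called lower, and with voom and 5 with the likelihood ratio test or when only the 2 groups compared were fitted. In CT1258, the 2 calls at 24 h became 1 with only 2 groups fitted, and the 1 call between the times became 2 at 0.05. For PC-3 against LNCaP at 24 h, 0 became 1 at 0.05, with DESeq2, the likelihood ratio test and voom. For CT1258 against PC-3, the 1 call at 12 h became 2 at 0.05, with DESeq2 and the likelihood ratio test, and the 1 call at 24 h became 3 at 0.05, 2 with DESeq2, the likelihood ratio test and voom, and 0 with a filter of 1 CPM, no filter or library size only. For CT1258 against LNCaP, 0 became 1 at 12 h at 0.05, with DESeq2 and the likelihood ratio test, and 1 at 24 h at 0.05. Leaving out 1 sample at a time, the number of calls ranged from 6 to 7 in PC-3 at 12 h, 3 to 4 at 24 h and 1 to 5 between the times, was 2 in CT1258 at 12 h and ranged from 1 to 2 at 24 h and 0 to 1 between the times, was 0 in LNCaP, and ranged from 6 to 7 for PC-3 against LNCaP in DMSO, 0 to 1 in response at either time, 1 to 2 for CT1258 against PC-3 at 12 h and 0 to 2 at 24 h, and was 0 for CT1258 against LNCaP. CXCL3 in PC-3 at 24 h lost its call in 6 of 8 such fits, and the higher response of IL1B in CT1258 at 24 h in 25 of 26. IL6 in PC-3 at 12 h was not called with voom or with only 2 groups fitted. Single log2 values turned in fits that left out 1 sample, which ranged from -3.73 to 0.027 for IL1A of CT1258 against LNCaP at 12 h (0.027 without LNCaP DMSO replicate 1). For PC-3 against LNCaP at 12 h they ranged from -0.63 (without LNCaP DMSO replicate 1) to 5.72 for CXCL2, from -0.47 (without LNCaP DMSO replicate 2) to 3.45 for IL1A and from -0.24 to 0.63 for LIF (-0.24, -0.17 and -0.11 without LNCaP DMSO replicate 1 and PDA-66 12 h replicates 1 and 3). At 24 h they ranged from -2.95 to 2.61 for CXCL2 and from -2.19 to 1.73 for IL1A with the same control samples left out, and CXCL2 was at -0.33 with voom. LIF in LNCaP at 12 h ranged from -0.39 (without PDA-66 12 h replicate 2) to 0.51, with -0.07 without DMSO replicate 2, and was at -0.19 with voom. In PC-3 at 24 h CCL20 ranged from -0.55 to 0.32 (without DMSO replicate 3) and CXCL2 from -0.34 (without DMSO replicate 2) to 1.41, and LIF between the times from -0.0021 (without PDA-66 24 h replicate 3) to 0.090.

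The replicate numbers did not pair the samples: same-numbered samples had correlated deviations above 0.1 in 0 of 4 pairs of PC-3, 1 of 9 of LNCaP and 1 of 9 of CT1258. With the replicate number as a block, the call of IL8_CANFA between 24 and 12 h was lost (adjusted p = 0.00102), leaving 0 calls, and in PC-3 at 24 h, fitted on the DMSO and 24 h samples alone, CXCL3 lost its call (adjusted p = 0.0067) and IL1A gained one (adjusted p = 0.000187).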

Other observations

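In CT1258, KLK2, a kallikrein protease of the prostate, had 67 to 218 counts in the DMSO samples and 0 in all 6 PDA-66 samples, and COL1A2 was lower at both times (log2 fold change -1.85 and -2.81), while LUM, the other abundant gene of its marker list, had 262 to 322 CPM in DMSO and 333 to 429 CPM at 12 h.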
